A study of Mus musculus with 18 samples.

Results

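RNA pulled down with HA-tagged ribosomes from the brain of glioma-bearing mice treated with AZD8055 (AZD IP) was set against the same pull-down from tumor-free mice (control IP), to see what still differed from tumor-free cortex. The tag is made in excitatory neurons, but in control IP the RNA of inhibitory neurons and glia was nearly as abundant as in input. By their names the IP and input libraries of control belong to different library sets. Control IP is therefore named by its label and not as RNA of excitatory neurons. The libraries were taken by their labels, 3 AZD IP and 3 control IP, which makes 6 of the 18 libraries of the series, and all genes were examined. All groups came from the brain of mice of the genotype Camk2a-Cre-Rpl22HA. AZD mice had glioma cells implanted in the cortex and received AZD8055, an inhibitor of the mTOR kinase. Tumor mice had the implanted cells and no AZD8055, and control mice had no tumor. Input, the total RNA before immunoprecipitation, was also sequenced in each condition, 3 libraries to each of the 6 groups. The sources used here do not give the dose, the length of treatment, the age of the mice, the glioma cells used or what control mice received. No library used here came from tumor-free mice given AZD8055, so the drug and the tumor cannot be told apart in AZD against control.

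In such mice Cre recombinase, made under the Camk2a promoter, places an HA tag on the large-subunit protein Rpl22, so that ribosomes of excitatory forebrain neurons can be pulled down together with the mRNAs they carry. The mTOR kinase, as part of complex 1, responds to growth factors and amino acids and promotes the making of ribosomes and proteins. Its best known translational targets carry a 5' terminal oligopyrimidine (TOP) tract, a run of C and U that starts at the cap, and include nearly all ribosomal proteins. In neurons the kinase also bears on dendrite growth, synaptic plasticity and excitability. Gliomas of the oligodendrocyte precursor kind grow among neurons, and cells of such a tumor carry Pdgfra, Olig2 and Cspg4.

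Total counts lay between 13561511 (replicate 1) and 31052149 in AZD IP, and between 23097718 and 34178417 in control IP. The library names put all AZD libraries in one library set and the control and tumor IP libraries in another, so for AZD against control in IP the condition and the library set cannot be told apart. The control and tumor input libraries form a further set. Whether the 3 libraries of a group came from 3 mice is not stated in the labels, so the p-values rest on a spread between libraries that could be technical. In a principal component analysis of the 9 IP libraries, the first axis (47.7% of the variance) held AZD IP at -52.0, -63.3 and -46.9 and control IP at -31.3, -19.0 and -19.98, with tumor IP at 95.5, 69.0 and 67.9. The second axis (27.5% of the variance) held AZD IP at 59.8, 44.8 and 25.4 and control IP at -42.0, -64.3 and -61.4, with tumor IP at 29.2, 4.96 and 3.44. Levels are in CPM, a gene's count relative to the TMM-scaled total of its library, and log2 folds are AZD over control with the standard error of the fit unless another pair is named.

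Of 15734 genes tested in IP, 5246 (33.3%) passed an adjusted p of 0.05 in edgeR's quasi-likelihood test, 2516 (16%) higher and 2730 (17.4%) lower in AZD IP. Among these, 379 were at least 2-fold higher and 1460 at least 2-fold lower, and the median log2 fold over all tested genes was 0.0046. The count fell to 3429 without control IP replicate 2. It was 3122 when libraries were scaled to the excitatory-neuron markers, of which 30.5% were higher, against 48.0% under the scaling used here. With the same scaling but without the marker Nptxr it was 3717, of which 13.5% were higher, and the median over all genes moved to -0.20. In input 5703 of 15511 genes (36.8%) passed, 3214 higher (20.7%) and 2489 lower (16%). Of the 15269 genes tested in both fractions, 965 were higher in both, which is 38.6% of the genes higher in IP and 30.5% of those higher in input. Another 701 were lower in both, 26.0% of those lower in IP and 28.5% of those lower in input. The genes that were lower in IP and not called in input numbered 1648, and 1451 were higher in IP and not called in input.

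The larger differences ran along cell type. Genes of glia, vessels and inhibitory neurons made up the lower end, genes of dividing cells the upper end, and genes of protein production lay a little above 0 (the plot of list medians). Between them, the lists of ion channels, glutamate receptors and transmitter release had medians between -0.10 and 0.04 in IP and between -0.72 and -0.50 in input. Counts of list members called in IP are to be read beside the shares over all genes, 16% higher and 17.4% lower. In input these shares were 20.7% and 16%, against tumor IP 25.1% and 33.5%, and for IP minus input 11.7% and 19.3%.

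**Figure D1:**
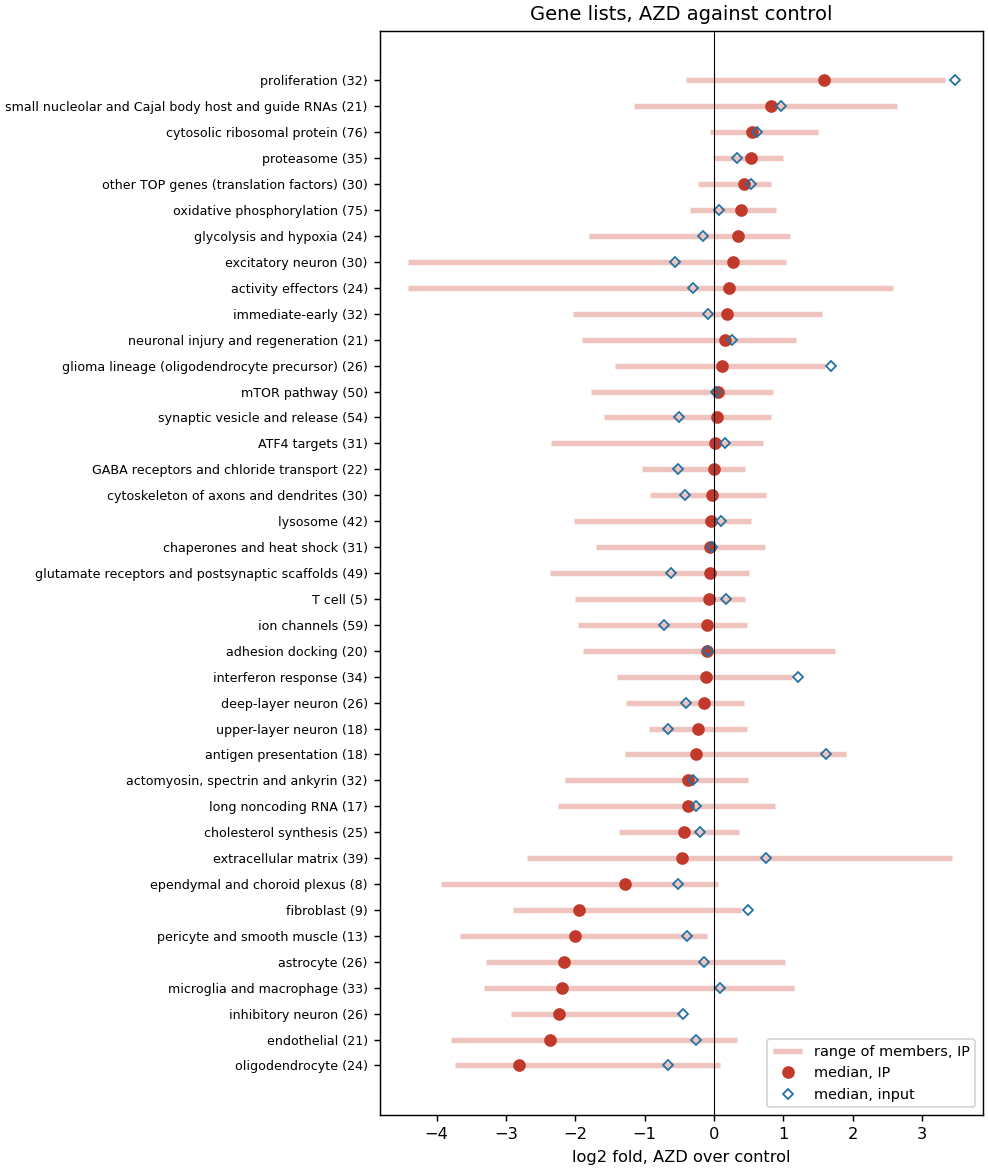
Log2 fold of AZD over control for gene lists with at least 5 members tested in IP (number in brackets). Filled circles give the median in IP, bars the range of the members in IP, and open diamonds the median in input; oligodendrocyte genes lie lowest in IP at -2.81 and proliferation genes highest at 1.58, against 3.48 in input.

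The cells that carry the tag were recognised by their own genes. Camk2a, the kinase gene of excitatory synapses whose promoter drives Cre (chromosome 18, 60925307 to 60988152, GRCm38.p6), had 929, 1859 and 1899 CPM in AZD IP, against 1752, 1565 and 1531 CPM in control IP. The first AZD library had a lower level than the other two and than all controls, and the groups overlapped (log2 fold -0.05 ± 0.25, edgeR adjusted p = 0.9). Slc17a7, the vesicular glutamate transporter of these neurons, had 1438, 1203 and 1066 CPM in AZD IP, against 1043, 761 and 817 CPM in control IP, with no overlap (log2 fold 0.50 ± 0.16, edgeR adjusted p = 0.032). Its edgeR adjusted p was 0.071 to 0.13 when AZD IP replicate 1 or 2 or control IP replicate 2 or 3 was left out. The call was also lost under the excitatory-neuron scaling (edgeR adjusted p = 0.075) and under that scaling without Nptxr (edgeR adjusted p = 0.21). Of 30 excitatory markers, all tested, 11 were higher and 3 lower, with a median log2 fold of 0.27. The number higher was 2 without control IP replicate 2 or control IP replicate 3, 3 without AZD IP replicate 2 and 6 without AZD IP replicate 3, and 3 under the excitatory-neuron scaling without Nptxr. That scaling makes the mean log count of these same markers, Nptxr apart, equal across libraries. It therefore cannot test whether they were higher as a group. In input, under the scaling used here, none was higher, 17 were lower and the median was -0.57. Sv2b, a synaptic vesicle glycoprotein, was among the higher ones, at 2271, 2173 and 1913 CPM in AZD IP, against 1465, 1111 and 1149 CPM in control IP (log2 fold 0.77 ± 0.13, edgeR adjusted p = 0.0012). Lmo4, a transcriptional cofactor of cortical neurons, was at 251 ± 22.8 CPM in AZD IP and 175 ± 15.3 CPM in control IP (SD, n = 3 each, log2 fold 0.52 ± 0.10, edgeR adjusted p = 0.0033), and its call was lost under the excitatory-neuron scaling without Nptxr. Mef2c, a transcription factor of these neurons that did not pass, was at 1437 ± 111 CPM in AZD IP and 1175 ± 105 CPM in control IP (log2 fold 0.29 ± 0.16, edgeR adjusted p = 0.2). The 3 lower markers were Nptxr, described below, and the deep-layer regulators Tle4 and Bcl11b.

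Rpl22, the tagged protein's gene, had 94.0, 81.6 and 79.5 CPM in AZD IP, against 53.5, 49.0 and 47.3 CPM in control IP, with no overlap between the groups (log2 fold 0.77 ± 0.15, edgeR adjusted p = 0.0032). Its level was 139 ± 33.0 CPM in tumor IP. The call was lost under the excitatory-neuron scaling without Nptxr. In input Rpl22 was also higher, at a log2 fold of 1.37. Rpl22l1, its paralog, had 68.7, 49.3 and 44.8 CPM in AZD IP, against 46.6, 41.5 and 36.6 CPM in control IP, and the groups overlapped (log2 fold 0.38 ± 0.15, edgeR adjusted p = 0.076). Counts do not show which of these transcripts carry the tag.

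Genes of the other major resident cell types were lower in AZD IP than in control IP. Of 26 inhibitory neuron genes 24 were lower and none higher (median log2 fold -2.24), of 26 astrocyte genes 24 lower and 1 higher (-2.16), and of 24 oligodendrocyte genes 22 lower (-2.81). Of 33 microglia and macrophage genes 25 were lower (-2.18) and of 21 endothelial genes 20 lower (-2.37). Pericyte genes (12 of 13 lower, median -2.005) and fibroblast genes (7 of 9, median -1.95) did likewise. Each of these counts moved by at most 2 genes when any 1 library was left out or another scaling was used. In bulk RNA of this kind, fewer cells of a type and less RNA per cell cannot be told apart. In input the same lists had smaller median log2 folds: -0.45 for inhibitory neurons, -0.15 for astrocytes, -0.66 for oligodendrocytes, 0.09 for microglia and -0.25 for endothelial cells. Even so, 15 of 24 oligodendrocyte, 10 of 26 inhibitory and 6 of 26 astrocyte genes were lower there, beside 16% of all genes.

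**Figure D2:**
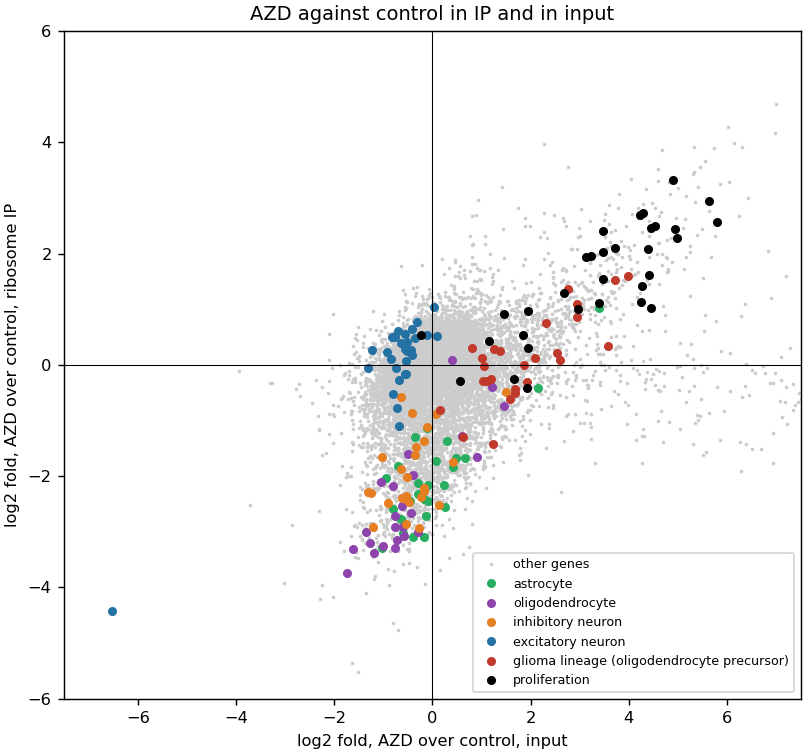
Log2 fold of AZD over control in ribosome IP (y axis) against input (x axis), 1 point per gene tested in both, with 6 marker lists in colour; 38 genes lie outside the axes. Most astrocyte, oligodendrocyte and inhibitory neuron genes lie lower in IP (medians -2.16, -2.81 and -2.24) than in input (medians -0.15, -0.66 and -0.45), most proliferation genes are above 0 in both, and the isolated point at lower left is Nptxr, at -4.41 in IP and -6.53 in input.

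Among single markers the groups did not overlap, with Gfap as the exception. Gad1, which makes GABA, had 106, 48.0 and 87.6 CPM in AZD IP, against 379, 436 and 416 CPM in control IP (log2 fold -2.36 ± 0.27, edgeR adjusted p = 0.00015). Gad2, its paralog, had 234, 73.7 and 129.7 CPM in AZD IP, against 373, 451 and 389 CPM in control IP (log2 fold -1.48 ± 0.34, edgeR adjusted p = 0.0073). The second AZD library was the lowest for both. Slc1a3, the astrocyte glutamate transporter, had 83.2, 72.9 and 106 CPM in AZD IP, against 515, 563 and 641 CPM in control IP (log2 fold -2.71 ± 0.16, edgeR adjusted p = 9.1e-06). The water channel Aqp4 had 44.1, 42.0 and 46.4 CPM in AZD IP, against 145, 162 and 163 CPM in control IP (log2 fold -1.83 ± 0.12, edgeR adjusted p = 1.0e-05). Mlc1 and Gja1, membrane proteins of astrocyte endfeet and gap junctions, were among the 15 lowest genes of the comparison, at log2 folds of -3.08 and -3.08. Gfap, the filament of reactive astrocytes, had 103, 40.0 and 45.8 CPM in AZD IP, against 80.4, 86.6 and 82.6 CPM in control IP, with AZD libraries on both sides of the controls (log2 fold -0.42 ± 0.33, edgeR adjusted p = 0.36), and in input it was higher, at a log2 fold of 2.16. Mbp, a main protein of myelin, was at 195 ± 48.4 CPM in AZD IP and 839 ± 139.8 CPM in control IP (SD, n = 3 each, log2 fold -2.11 ± 0.34, edgeR adjusted p = 0.0011). Mag, Mog, Mal, Aspa and Trf, further genes of myelinating cells, had log2 folds of -3.29, -3.26, -3.15, -3.20 and -3.07. Microglia were represented by C1qa, a complement gene, at 8.11, 4.94 and 6.37 CPM in AZD IP, against 27.3, 25.5 and 34.1 CPM in control IP (log2 fold -2.19 ± 0.17, edgeR adjusted p = 1.8e-05), and by the fractalkine receptor Cx3cr1, at a log2 fold of -3.32 ± 0.27. Vtn, which in brain marks pericytes, had 2.47, 3.33 and 4.86 CPM in AZD IP, against 46.1, 41.8 and 52.2 CPM in control IP (log2 fold -3.66 ± 0.29, edgeR adjusted p = 1.8e-05). The endothelial claudin Cldn5 was at 4.58 ± 2.22 CPM in AZD IP and 19.2 ± 4.13 CPM in control IP (log2 fold -2.13 ± 0.29, edgeR adjusted p = 0.00036).

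**Figure D3:**
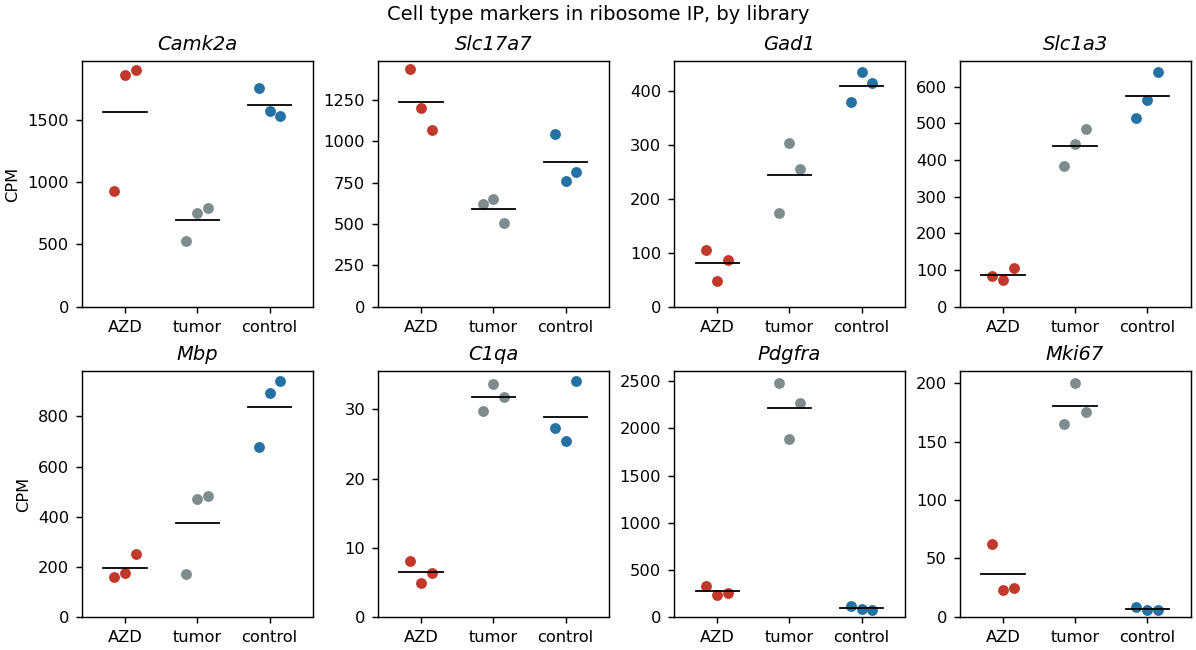
Level in CPM (linear y axis from 0) of 8 cell type markers in each ribosome IP library, with AZD, tumor and control from left to right; points are libraries and bars are means of 3. Gad1, Slc1a3, Mbp and C1qa are lowest in AZD, while Pdgfra and Mki67 in AZD lie between tumor and control.

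The log2 ratio of IP over input, taken within numbered libraries and as the median of each list, sets the level of each cell type in the pull-down against its level in the tissue. For excitatory markers it was 1.23 ± 0.17 in AZD, 0.35 ± 0.17 in tumor and 0.29 ± 0.09 in control (SD, n = 3 each). For inhibitory markers it was -1.85 ± 0.26 in AZD, -0.12 ± 0.13 in tumor and -0.11 ± 0.03 in control. For astrocyte markers it was -2.26 ± 0.27 in AZD, -0.08 ± 0.13 in tumor and -0.02 ± 0.10 in control, and for microglia -2.41 ± 0.22 in AZD, -0.23 ± 0.07 in tumor and -0.19 ± 0.16 in control. In control and tumor, RNA of inhibitory neurons, astrocytes and microglia was nearly as abundant in IP as in input. The IP and input libraries of control and tumor belong to different library sets, while those of AZD share a set. Set and fraction therefore cannot be told apart in the ratios of control and tumor. The ratio was lower for endothelial genes, at -0.46 ± 0.06 in tumor and -0.52 ± 0.25 in control. For pericyte genes it was -0.41 ± 0.01 in tumor and -0.60 ± 0.13 in control. The AZD libraries, which form a library set of their own, stood apart. The summed level of the 26 astrocyte genes was 2580.1 to 3336 CPM over the AZD IP libraries, 6795 to 8931 CPM in tumor IP and 10728 to 11722 CPM in control IP. That of the 24 oligodendrocyte genes was 798 to 1109.5 CPM in AZD IP, 1984 to 3147 CPM in tumor IP and 3323 to 4095 CPM in control IP. That of the 26 inhibitory genes was 335 to 659 CPM in AZD IP and 1467 to 1692 CPM in control IP, and that of the 30 excitatory genes 13267 to 14779.7 CPM in AZD IP and 10508 to 12376 CPM in control IP. These shares move with every AZD against control difference below, and their part in it was not tested.

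Genes of dividing cells, and some genes of the tumor lineage, were above the control level in AZD IP and below their level in tumor IP. Of 32 proliferation genes 24 were higher and none lower, with a median log2 fold of 1.58, and 31 were higher in input (median 3.48). Against tumor IP 31 of the 32 were lower in AZD IP (median -2.17), where 33.5% of all genes were lower. Mki67, a nuclear protein of cycling cells, had 62.8, 23.4 and 24.971 CPM in AZD IP, against 8.19, 5.54 and 5.87 CPM in control IP, and 180.0 ± 18.4 CPM in tumor IP. The first AZD library was the highest of its group, and all AZD libraries lay above all controls (log2 fold 2.47 ± 0.35, edgeR adjusted p = 0.00049). Top2a, the topoisomerase of replicating cells, had 43.2, 16.4 and 16.0 CPM in AZD IP, against 6.71, 4.16 and 4.19 CPM in control IP (log2 fold 2.28 ± 0.36, edgeR adjusted p = 0.001). Cenpf, of the kinetochore, was at 22.5 ± 11.953 CPM in AZD IP and 2.18 ± 0.564 CPM in control IP (log2 fold 3.33 ± 0.35, edgeR adjusted p = 7.6e-05). Cdk1, the kinase of mitotic entry, had 6.87, 3.75 and 4.17 CPM in AZD IP, against 0.911, 0.476 and 0.412 CPM in control IP (log2 fold 2.95 ± 0.31, edgeR adjusted p = 7.6e-05). The replicative helicase subunit Mcm6 did not pass: it had 40.0, 9.42 and 8.08 CPM in AZD IP, against 9.99, 9.83 and 9.27 CPM in control IP, and only the first AZD library stood above all controls (log2 fold 0.92 ± 0.49, edgeR adjusted p = 0.17).

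Genes of the oligodendrocyte precursor lineage split in IP. Of 26, 7 were higher and 5 lower (median 0.11; the number lower was 3 without AZD IP replicate 2 or control IP replicate 2 or control IP replicate 3), while 24 were higher in input (median 1.68) and all 26 were lower than in tumor IP (median -2.92). The median in IP was -0.10 under the excitatory-neuron scaling without Nptxr, so no direction is given for the list. Pdgfra, the receptor for platelet-derived growth factor, had 328, 233 and 259 CPM in AZD IP, against 112, 82.3 and 75.9 CPM in control IP, and 2214 ± 305 CPM in tumor IP (log2 fold 1.60 ± 0.18, edgeR adjusted p = 0.00013). All AZD libraries lay above all controls and far below tumor IP. Cspg4 (NG2), a surface proteoglycan of the lineage, had 78.9, 64.4 and 70.3 CPM in AZD IP, against 27.9, 23.9 and 22.6 CPM in control IP (log2 fold 1.52 ± 0.12, edgeR adjusted p = 1.8e-05). Olig2, its transcription factor, had 16.6, 17.0 and 21.5 CPM in AZD IP, against 15.2, 16.6 and 16.2 CPM in control IP (log2 fold 0.21 ± 0.14, edgeR adjusted p = 0.29); in input the log2 fold was 2.54. Lower members included Gpr17, a receptor of differentiating precursors (log2 fold -1.29 ± 0.27), and the matrix proteoglycan brevican. Its gene Bcan had 48.4, 47.7 and 67.8 CPM in AZD IP, against 138, 156 and 146 CPM in control IP (log2 fold -1.42 ± 0.15, edgeR adjusted p = 7.6e-05). Astrocytes express Bcan too. The order of levels was tumor IP, AZD IP and control IP for Pdgfra and Cspg4, and tumor IP, control IP and AZD IP for Bcan and Gpr17.

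The highest folds of the whole comparison belonged to genes abundant in tumor IP. Pnlip, listed under the pancreatic lipase symbol (chromosome 19), had 39.5, 25.5 and 23.3 CPM in AZD IP, against 3.37, 0.606 and 0.275 CPM in control IP, and 130.2 ± 37.7 CPM in tumor IP (log2 fold 4.27 ± 0.57, edgeR adjusted p = 0.00033). The first control library held most of the control signal. Fbn2, a fibrillin of extracellular microfibrils, had 50.7, 31.6 and 27.8 CPM in AZD IP, against 4.01, 3.94 and 2.85 CPM in control IP (log2 fold 3.34 ± 0.27, edgeR adjusted p = 1.9e-05). Col11a1, a fibrillar collagen chain, had 42.3, 42.2 and 48.8 CPM in AZD IP, against 8.35, 5.07 and 4.57 CPM in control IP (log2 fold 2.88 ± 0.29, edgeR adjusted p = 6.4e-05). The lowest AZD value was far above the highest control value in both, though groups without overlap were a condition of the choice. Adam12, a membrane metalloprotease, was at 27.4 ± 2.5951 CPM in AZD IP and 5.05 ± 1.20 CPM in control IP (log2 fold 2.42 ± 0.17, edgeR adjusted p = 1.1e-05). Spry4, a feedback inhibitor of receptor tyrosine kinase signalling, was at 51.7 ± 3.29 CPM in AZD IP and 12.3 ± 3.41 CPM in control IP (log2 fold 2.07 ± 0.17, edgeR adjusted p = 2.2e-05). Shc4, an adaptor of such receptors, was at 25.2 ± 0.991 CPM in AZD IP and 7.79 ± 2.38 CPM in control IP (log2 fold 1.69 ± 0.20, edgeR adjusted p = 0.00016). All 6 were lower than in tumor IP, by log2 folds of -2.16, -1.25, -2.48, -2.63, -1.95 and -2.64, and higher than control in input too, by 6.03, 4.05, 3.61, 3.72, 4.02 and 3.58. Matrix genes as a list went the other way in IP, with 7 of 39 higher, 18 lower and a median of -0.46, against 19 higher, 3 lower and 0.75 in input. Timp3, an inhibitor of metalloproteases, had 31.7, 21.4 and 35.9 CPM in AZD IP, against 116, 128 and 139.6 CPM in control IP (log2 fold -2.11 ± 0.17, edgeR adjusted p = 1.8e-05). Lamb2, a laminin chain of the vessel wall, was at 3.64 ± 1.15 CPM in AZD IP and 23.9 ± 1.16 CPM in control IP (log2 fold -2.70 ± 0.24, edgeR adjusted p = 2.9e-05).

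Of the other genes among the 15 highest, Schip1, Tagap1, Klhl40 and Hist4h4 were higher than in tumor IP as well. Schip1, a protein of the axon initial segment, had 18.5, 19.9 and 18.6 CPM in AZD IP, against 5.55, 5.07 and 5.84 CPM in control IP (log2 fold 1.79 ± 0.12, edgeR adjusted p = 1.0e-05), and its log2 fold over tumor IP was 1.65. The AZD libraries lay within a narrow band. That they were clear of the controls was a condition of the choice. Tagap1, a GTPase-activating protein, had 19.1, 18.6 and 19.9 CPM in AZD IP, against 4.55, 7.71 and 4.98 CPM in control IP (log2 fold 1.75 ± 0.20, edgeR adjusted p = 0.00012). Klhl40, a kelch protein known from muscle, was at 21.2 ± 2.61 CPM in AZD IP and 6.45 ± 0.544 CPM in control IP (log2 fold 1.71 ± 0.20, edgeR adjusted p = 0.00017). Hist4h4, a histone H4 gene, was at 40.3 ± 8.49 CPM in AZD IP and 10.7 ± 2.16 CPM in control IP (log2 fold 1.91 ± 0.17, edgeR adjusted p = 3.4e-05). Nedd9, a scaffold of focal adhesions, had 167, 109.6 and 114 CPM in AZD IP, against 54.3, 18.3 and 43.1 CPM in control IP (log2 fold 1.75 ± 0.42, edgeR adjusted p = 0.0093). Arsj, a sulfatase, had 27.9, 11.9 and 9.17 CPM in AZD IP, against 5.07, 4.85 and 3.67 CPM in control IP (log2 fold 1.82 ± 0.42, edgeR adjusted p = 0.0077); in both the first AZD library was the highest.

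By the same ranking the lowest gene was Nptxr, the neuronal pentraxin receptor, which clusters AMPA receptors at excitatory synapses (chromosome 15, 79786351 to 79804709, GRCm38.p6). It had 1.39, 2.45 and 1.51 CPM in AZD IP, against 45.2, 37.7 and 34.8 CPM in control IP, and 21.1 ± 0.933 CPM in tumor IP (log2 fold -4.41 ± 0.19, edgeR adjusted p = 3.5e-06). In raw counts the AZD IP libraries held 18, 70 and 46, against 1490, 870 and 1014 in control IP. In input it had 6, 2 and 11 counts with AZD, against 597, 522 and 499 in control, a log2 fold of -6.53. All 6 AZD libraries, input and IP, were lower than all control and tumor libraries.

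Transmitter release genes held 54 tested members, of which 11 were higher (20.4%) and 7 lower (13%) in IP, with a median of 0.04. Over all genes these shares were 16% and 17.4%. Under the excitatory-neuron scaling without Nptxr 7 were higher and 15 lower, and the median was -0.15. In input none was higher and 30 were lower (median -0.50). Against tumor IP 44 were higher in AZD IP (median 0.86), where 25.1% of all genes were higher. The number higher than in control was 6 without control IP replicate 2 and 7 without AZD IP replicate 2. Amph, amphiphysin of the endocytic zone, had 423, 358 and 318 CPM in AZD IP, against 235, 205 and 198 CPM in control IP (log2 fold 0.78 ± 0.12, edgeR adjusted p = 0.00068). Syt13, a synaptotagmin, was at 386 ± 16.2 CPM in AZD IP and 261 ± 27.6 CPM in control IP (log2 fold 0.57 ± 0.10, edgeR adjusted p = 0.0014), and its call was lost under the excitatory-neuron scaling without Nptxr. Syt1, the calcium sensor of release, did not pass at 2187 ± 280.0 CPM in AZD IP and 1852 ± 189 CPM in control IP (log2 fold 0.24 ± 0.16, edgeR adjusted p = 0.28). Rab3b, a vesicle GTPase, had 11.3, 12.9 and 16.0 CPM in AZD IP, against 33.992, 36.8 and 35.9 CPM in control IP, all AZD libraries being lower (log2 fold -1.40 ± 0.14, edgeR adjusted p = 7.1e-05).

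Of 49 postsynaptic genes of glutamate transmission 13 were lower (26.5%, against 17.4% of all genes) and 1 higher in IP (median -0.06; 8 lower without control IP replicate 2; 0 higher and 17 lower under the excitatory-neuron scaling without Nptxr), and 31 lower in input (median -0.62). The lowest was Grin2c, an NMDA receptor subunit found in astrocytes and interneurons as well as in some principal neurons, at 4.17, 5.71 and 7.23 CPM in AZD IP, against 24.9, 34.8 and 30.7 CPM in control IP (log2 fold -2.37 ± 0.20, edgeR adjusted p = 2.2e-05). Homer2, a scaffold of metabotropic receptors, had 46.1, 73.5 and 76.2 CPM in AZD IP, against 141, 152 and 139 CPM in control IP (log2 fold -1.14 ± 0.20, edgeR adjusted p = 0.0019). The metabotropic receptor Grm4 was at 10.6 ± 1.07 CPM in AZD IP and 23.7 ± 1.74 CPM in control IP (log2 fold -1.15 ± 0.13, edgeR adjusted p = 9.7e-05). Both were lower in input too, at log2 folds of -1.05 and -1.31. The main AMPA subunit gene Gria2 did not pass at 1539.8 ± 46.5 CPM in AZD IP and 1336 ± 65.2 CPM in control IP (log2 fold 0.21 ± 0.11, edgeR adjusted p = 0.18). Among 22 tested GABA receptor and chloride transport genes 2 were higher and 5 lower, with 0 higher and 7 lower under the excitatory-neuron scaling without Nptxr, and the median changed sign with the scaling (-0.20 to 0.02). Slc12a2, the chloride importer NKCC1, had 64.6, 68.7 and 80.7 CPM in AZD IP, against 127, 157 and 129.9 CPM in control IP (log2 fold -0.95 ± 0.13, edgeR adjusted p = 0.00046). Wnk1, a kinase that regulates chloride cotransporters, was at 156 ± 11.2 CPM in AZD IP and 314 ± 61.6 CPM in control IP (log2 fold -1.01 ± 0.14, edgeR adjusted p = 0.00053). The receptor subunit Gabrb2 did not pass, at a log2 fold of 0.09.

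Of 59 ion channel genes 4 were higher and 14 lower in IP (23.7% lower, against 17.4% of all genes; median -0.10). The count was 7 lower without control IP replicate 2 or control IP replicate 3, 8 lower without AZD IP replicate 1 and 9 lower without AZD IP replicate 2. It was 0 higher and 21 lower under the excitatory-neuron scaling without Nptxr. In input 42 were lower (median -0.72). Kcnj10, the inward rectifier of astrocytes, was the lowest at a log2 fold of -1.97 ± 0.20. Among channels of neurons, Kcnc1, the fast delayed rectifier Kv3.1, had 76.0, 85.1 and 88.4 CPM in AZD IP, against 147, 148 and 151 CPM in control IP (log2 fold -0.84 ± 0.14, edgeR adjusted p = 0.0014). Hcn2, a pacemaker channel, had 53.8, 54.5 and 51.5 CPM in AZD IP, against 88.4, 99.5 and 91.6 CPM in control IP (log2 fold -0.81 ± 0.12, edgeR adjusted p = 0.00084). Kcnn3, a calcium-activated potassium channel, was at 15.8 ± 2.26 CPM in AZD IP and 33.9 ± 3.62 CPM in control IP (log2 fold -1.09 ± 0.15, edgeR adjusted p = 0.00035). In each of them the AZD libraries stayed below the controls, and the input folds were -1.17, -1.14 and -1.09. Scn2a1, a sodium channel of excitatory neurons, did not pass at 1125 ± 82.5 CPM in AZD IP and 932 ± 71.8 CPM in control IP (log2 fold 0.27 ± 0.16, edgeR adjusted p = 0.23).

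Layer identity genes gave 8 lower (30.8%) and 1 higher (3.85%) of 26 deep-layer genes, with a median of -0.14. Under the excitatory-neuron scaling without Nptxr 0 were higher and 9 lower. Of 18 upper-layer genes 5 were lower (27.8%) and 2 higher (11.1%), with a median of -0.24. The number lower was 2 without control IP replicate 2 and 3 without AZD IP replicate 1 or control IP replicate 3. Under the excitatory-neuron scaling without Nptxr 0 upper-layer genes were higher and 7 lower. Over all genes 17.4% were lower and 16% higher. Tle4, a corepressor of corticothalamic neurons, had 52.1, 46.1 and 51.7 CPM in AZD IP, against 103, 112 and 106 CPM in control IP, with AZD well below the control level in every library (log2 fold -1.10 ± 0.22, edgeR adjusted p = 0.0034). Foxp2, a deep-layer transcription factor also found in striatum, had 33.7, 27.6 and 31.2 CPM in AZD IP, against 68.8, 74.3 and 78.6 CPM in control IP (log2 fold -1.26 ± 0.21, edgeR adjusted p = 0.0015). Bcl11b (Ctip2), of subcerebral projection neurons and striatum, had 130.3, 134 and 136 CPM in AZD IP, against 223, 237 and 227 CPM in control IP (log2 fold -0.78 ± 0.17, edgeR adjusted p = 0.0061). Their input folds were -0.67, -0.80 and -0.72. Tbr1, the deep-layer regulator that did not pass, was at 151 ± 10.8 CPM in AZD IP and 129 ± 16.0 CPM in control IP (log2 fold 0.23 ± 0.18, edgeR adjusted p = 0.34).

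A list of 14 striatal projection neuron genes was summed, chosen after values of these data were seen and given without a test. Its sum was 1414, 1078 and 1261 CPM in AZD IP, against 2349, 2838 and 2967 CPM in control IP, with 833, 1902 and 2025 CPM in tumor IP. In input it was 1350.0, 1424 and 1615 CPM with AZD, against 2789.9, 3118 and 3447 CPM in control. The sums of AZD and control did not overlap in either fraction, and of the 3 tumor libraries 1 lay below all AZD libraries and the others above them. Pde10a, the striatal phosphodiesterase, also chosen after its values were seen, had 231, 159.8 and 190.3 CPM in AZD IP, against 422, 579 and 589 CPM in control IP, and Adora2a, the adenosine receptor of the indirect pathway, had 13.6, 6.80 and 14.1 CPM in AZD IP, against 53.1, 71.2 and 76.2 CPM in control IP. The sources used here do not say how much striatum each dissection held, and its part in the lower deep-layer genes was not tested.

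**Figure D4:**
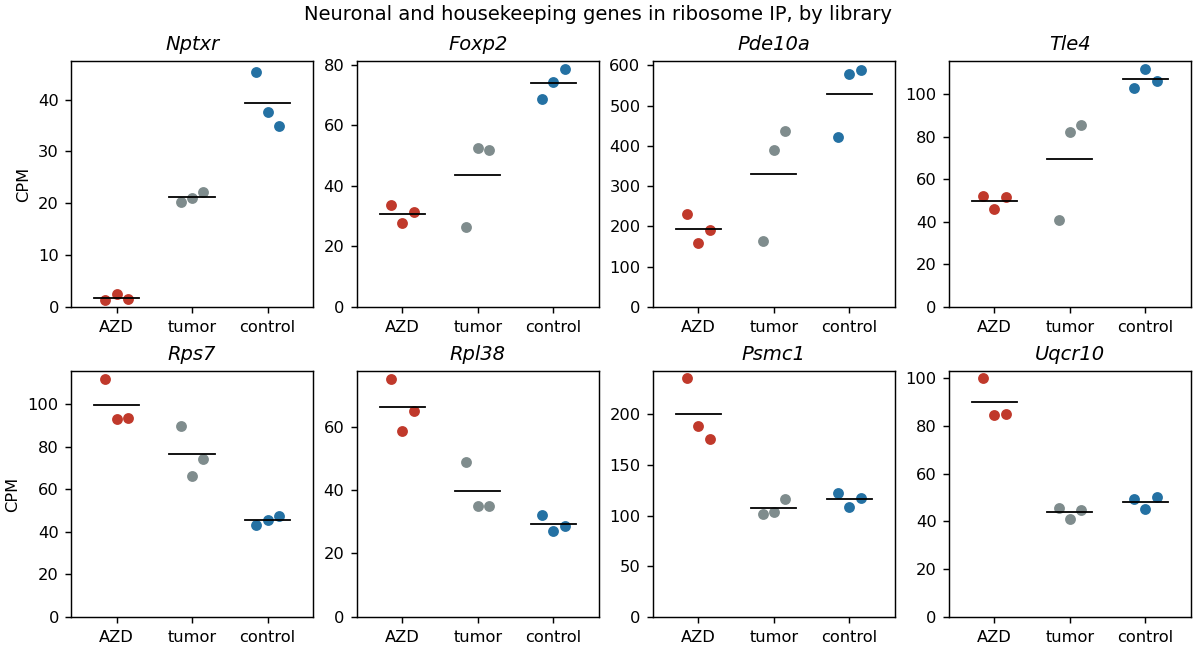
Level in CPM (linear y axis from 0) of 8 genes in each ribosome IP library, with AZD, tumor and control from left to right; points are libraries and bars are means of 3. Nptxr is near 0 in AZD, Foxp2, Pde10a and Tle4 are lower in AZD than in control, and Rps7, Rpl38, Psmc1 and Uqcr10 are higher.

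Ribosomal protein genes, the classic targets of mTOR, were higher in AZD IP than in control IP as a group. Of 79 listed, 76 were tested, and 60 of these were higher (78.9%, against 16% of all genes), none lower, with a median log2 fold of 0.56. In input 60 were higher too (median 0.63), and 1 of the 76 was lower and 3 higher in the contrast of IP minus input (median -0.10). Against tumor IP 6 of the 76 were higher and 21 lower, where 25.1% of all genes were higher and 33.5% lower. The median there was -0.15, closer to 0 than in AZD against control. The count was 39 without control IP replicate 2. It was 27 when scaled by the excitatory markers, and 11 without Nptxr among them, with a median of 0.37. The summed level was 6466 to 7804 CPM in AZD IP, 6972 to 9129.9 CPM in tumor IP and 4566 to 5029 CPM in control IP. Several of these genes have near-identical pseudogenes, among which reads may have been split in counting. Rps28, a small-subunit protein, had 48.8, 40.2 and 39.8 CPM in AZD IP, against 15.4, 14.9 and 14.9 CPM in control IP (log2 fold 1.51 ± 0.17, edgeR adjusted p = 0.00011). Rps7, of the same subunit, had 112, 92.8 and 93.7 CPM in AZD IP, against 43.0, 45.5 and 47.6 CPM in control IP (log2 fold 1.13 ± 0.12, edgeR adjusted p = 9.5e-05). The large-subunit protein Rpl38 had 75.0, 58.7 and 64.8 CPM in AZD IP, against 32.0, 27.016 and 28.7 CPM in control IP (log2 fold 1.18 ± 0.15, edgeR adjusted p = 0.00021). None of these groups overlapped, which held for 52.2% of all tested genes, and the first AZD library was the highest each time. Rps21 was at 113 ± 11.0 CPM in AZD IP and 64.7 ± 0.640 CPM in control IP (log2 fold 0.81 ± 0.10, edgeR adjusted p = 0.00019). Rpl4 did not pass, at 379 ± 27.018 CPM in AZD IP and 316 ± 20.2 CPM in control IP (log2 fold 0.26 ± 0.10, edgeR adjusted p = 0.072).

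RefSeq starts of these genes (GRCm38.p6) were searched for a TOP-like tract, written as a C within 5 bases of the start, on the coding strand, followed by at least 4 pyrimidines (C or T). It was present in 26 of the 56 tested ribosomal protein genes with a promoter in the table (46.4%), 8 of 22 other TOP genes (36.4%), 8 of 29 proteasome genes (27.6%), 15 of 62 genes of oxidative phosphorylation (24.2%) and 2278 of 11459 tested genes (19.9%). With the C on the annotated start itself it was present in 13 of the 56 (23.2%) and in 269 of all tested genes (2.35%). An annotated start can differ from the cap site in use. To show what the genes above carry there, 30 bases are given, from 10 before the start to 20 from it. Where a tract was found, capitals mark it from the qualifying C nearest the start. The same run of pyrimidines can reach further upstream. Rpl38, Rps24, Rps21 and Rpl27a were higher and hold a tract. Rps28 and Rps7 were higher and hold none that begins within 5 bases of the start. Rpl15 and Rps10 hold a tract and did not pass. Rps24, Rpl27a, Rpl15 and Rps10 were chosen for this after their values were seen.

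Rpl38: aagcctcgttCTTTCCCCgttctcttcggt (chr11:114668570-114668599, + strand)
Rps24: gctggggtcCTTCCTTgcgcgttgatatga (chr14:24490668-24490697, + strand)
Rps21: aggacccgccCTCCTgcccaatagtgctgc (chr2:180257369-180257398, + strand)
Rpl27a: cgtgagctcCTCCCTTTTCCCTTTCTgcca (chr7:109519185-109519214, + strand)
Rps28: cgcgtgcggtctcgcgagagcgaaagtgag (chr17:33824543-33824572, - strand)
Rps7: cggtttccacccacctacttccgctgtccc (chr12:28635934-28635963, - strand)
Rpl15: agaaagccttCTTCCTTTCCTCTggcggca (chr14:18270967-18270996, - strand)
Rps10: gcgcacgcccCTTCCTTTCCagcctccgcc (chr17:27635225-27635254, - strand)

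The log2 folds of these 8 genes, in the order shown, were 1.18, 0.97, 0.81, 0.59, 1.51, 1.13, 0.12 and -0.05. Rps10 had 24.0, 21.3 and 18.8 CPM in AZD IP, against 23.7, 20.3 and 22.3 CPM in control IP (log2 fold -0.05 ± 0.14, edgeR adjusted p = 0.79), and the groups overlapped. Among the ribosomal protein genes that were higher and had a promoter in the table, 20 of 45 (44.4%) held it.

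Rps28 has its start 9 bases from that of Ndufa7, a subunit of respiratory complex I, on the opposite strand of chromosome 17. The 100 bases around both starts are shown on the Ndufa7 strand, with the bases between the starts in capitals, since one stretch of DNA serves both genes.

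Ndufa7 and Rps28: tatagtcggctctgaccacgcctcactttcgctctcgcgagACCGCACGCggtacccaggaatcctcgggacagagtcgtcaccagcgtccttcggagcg (chr17:33824522-33824621, + strand)

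Both genes were higher in AZD IP: Ndufa7 had 59.4, 55.6 and 52.7 CPM in AZD IP, against 33.7, 28.4 and 33.6 CPM in control IP (log2 fold 0.81 ± 0.09, edgeR adjusted p = 0.00014), a smaller fold than that of Rps28.

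Other TOP genes, mostly translation factors, had 20 of 30 higher and none lower (median 0.43). The count was 11 without control IP replicate 2 or control IP replicate 3, 5 under the excitatory-neuron scaling and 1 under that scaling without Nptxr. The initiation factor subunits Eif3k and Eif3l had log2 folds of 0.69 ± 0.11 and 0.65 ± 0.12, and the call of Eif3l was lost under that scaling without Nptxr. Eef2, the elongation factor that moves the ribosome along, did not pass at 883 ± 6.67 CPM in AZD IP and 791 ± 28.3 CPM in control IP (log2 fold 0.16 ± 0.09, edgeR adjusted p = 0.19). Gas5 and Snhg1, host genes of small nucleolar RNAs whose transcripts also begin with a TOP tract, were higher. Gas5 had 54.5, 56.6 and 60.5 CPM in AZD IP, against 24.5, 34.5 and 34.001 CPM in control IP (log2 fold 0.89 ± 0.19, edgeR adjusted p = 0.0049). Snhg1 was at 9.94 ± 2.44 CPM in AZD IP and 4.55 ± 0.564 CPM in control IP (log2 fold 1.11 ± 0.26, edgeR adjusted p = 0.0076). Both calls were lost under the excitatory-neuron scaling without Nptxr. Of 21 tested genes of that list 10 were higher and none lower, with 2 higher under the excitatory-neuron scaling without Nptxr.

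Proteasome genes had 30 of 35 higher and none lower (median 0.53), against 17 higher in input (median 0.34). At least 23 were higher whichever 1 library was left out, 16 under the excitatory-neuron scaling and 5 under it without Nptxr. Psmc1, an ATPase of the regulatory particle, had 236, 188 and 176 CPM in AZD IP, against 122, 109 and 117 CPM in control IP (log2 fold 0.79 ± 0.12, edgeR adjusted p = 0.00065), with no overlap. Psmb5, the chymotrypsin-like catalytic subunit, had 19.1, 13.6 and 13.044 CPM in AZD IP, against 7.77, 6.88 and 8.07 CPM in control IP (log2 fold 0.99 ± 0.16, edgeR adjusted p = 0.0009). Psmb3, a structural subunit of the core, was at 55.0 ± 12.5 CPM in AZD IP and 28.2 ± 1.5011 CPM in control IP (log2 fold 0.95 ± 0.14, edgeR adjusted p = 0.00071). Psme3, an activator cap found in the nucleus, did not pass (log2 fold 0.13 ± 0.11). Genes of oxidative phosphorylation had 49 of 75 higher and none lower (median 0.39). In input 9 were higher and 2 lower (median 0.08), where 20.7% of all genes were higher and 16% lower. Against tumor IP 63 were higher (median 0.53), where 25.1% of all genes were higher. Against control, 22 were higher under the excitatory-neuron scaling, or 9 without Nptxr. Uqcr10, a small subunit of complex III, had 99.984, 84.6 and 85.0 CPM in AZD IP, against 49.2, 45.0 and 50.1 CPM in control IP (log2 fold 0.90 ± 0.09, edgeR adjusted p = 7.8e-05). Its level in tumor IP, 43.9 CPM, was close to control. Cox6b1, of complex IV, had 206, 174 and 168 CPM in AZD IP, against 111, 103 and 112 CPM in control IP (log2 fold 0.75 ± 0.10, edgeR adjusted p = 0.0003). Ndufb4, of complex I, was at 28.2 ± 2.33 CPM in AZD IP and 15.9 ± 0.671 CPM in control IP (log2 fold 0.82 ± 0.10, edgeR adjusted p = 0.00015). Sdha, of complex II, did not pass at 407 ± 8.23 CPM in AZD IP and 414 ± 18.4 CPM in control IP (log2 fold -0.03 ± 0.10, edgeR adjusted p = 0.86).

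**Figure D5:**
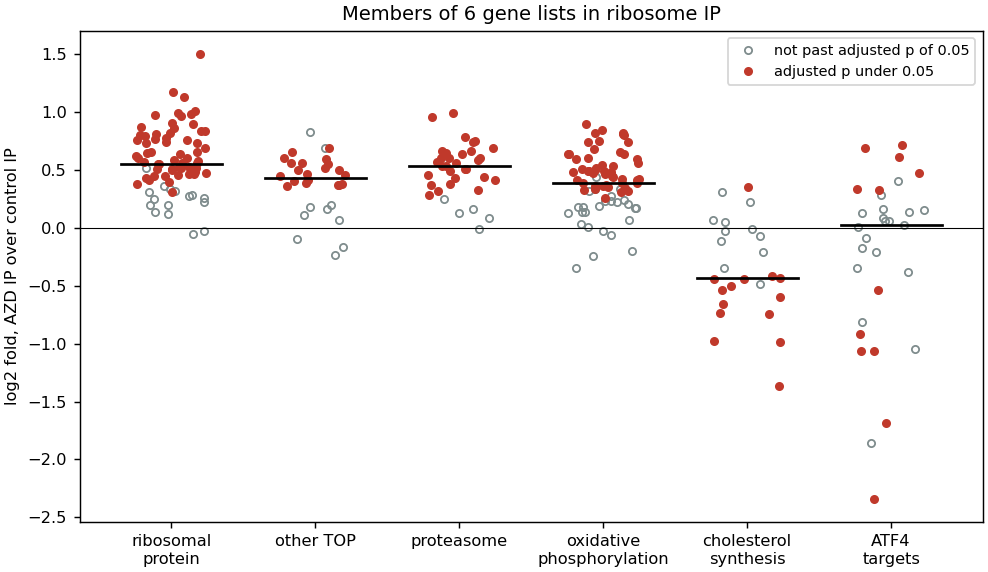
Log2 fold of AZD IP over control IP (y axis) for each tested member of 6 gene lists; filled points passed an adjusted p of 0.05, open points did not, and bars are medians. The first 4 lists lie mostly above 0, with medians of 0.56, 0.43, 0.53 and 0.39, cholesterol synthesis lies mostly below, at -0.44, and ATF4 targets lie on both sides.

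Within the mTOR pathway itself 12 of 50 genes were higher (24%) and 4 lower (8%), against 16% and 17.4% of all genes (median 0.06). Under the excitatory-neuron scaling without Nptxr 1 was higher and the median was -0.15. Sesn1, a leucine-responsive inhibitor of complex 1 signalling, had 128, 171 and 148 CPM in AZD IP, against 84.9, 80.7 and 80.8 CPM in control IP (log2 fold 0.86 ± 0.13, edgeR adjusted p = 0.0007), and 72.9 ± 11.4 CPM in tumor IP. Its AZD values lay above those of both other groups. Akt2, a kinase upstream of complex 1, had 29.6, 33.1 and 39.4 CPM in AZD IP, against 55.4, 55.1 and 62.5 CPM in control IP (log2 fold -0.76 ± 0.12, edgeR adjusted p = 0.00083). Akt1s1 (PRAS40) and Flcn, regulators of complex 1, had log2 folds of 0.41 ± 0.08 and 0.53 ± 0.11, and both calls were lost under the excitatory-neuron scalings.

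Cholesterol synthesis genes, which SREBP factors switch on downstream of mTOR, had 13 of 25 lower and 1 higher (median -0.44, -0.62 to -0.41 over the scalings; 7 lower under the excitatory-neuron scaling). In input 3 of the 25 were lower (median -0.20), where 16% of all genes were lower. Against tumor IP 17 were lower (median -0.68), where 33.5% of all genes were lower. Srebf1 and Srebf2 encode those factors. Srebf1 had 14.3, 11.4 and 16.1 CPM in AZD IP, against 32.2, 41.6 and 33.7 CPM in control IP (log2 fold -1.36 ± 0.15, edgeR adjusted p = 9.7e-05). Srebf2 had 93.5, 95.7 and 95.7 CPM in AZD IP, against 138, 125 and 118 CPM in control IP (log2 fold -0.42 ± 0.09, edgeR adjusted p = 0.004). Targets of ATF4, the factor of amino acid stress, had 6 higher and 6 lower of 31 tested; the number higher was 3 without control IP replicate 2 or control IP replicate 3. The counts were 0 higher and 5 lower under the excitatory-neuron scaling without Nptxr. The lower ones included serine synthesis and cystine uptake. Phgdh, the first enzyme of serine synthesis, had 4.86, 4.31 and 6.05 CPM in AZD IP, against 26.4, 25.5 and 25.9 CPM in control IP (log2 fold -2.34 ± 0.17, edgeR adjusted p = 1.3e-05), and 56.5 ± 11.5 CPM in tumor IP. Slc7a11, the cystine transporter xCT, had 37.1, 31.9 and 37.7 CPM in AZD IP, against 113, 109 and 121 CPM in control IP (log2 fold -1.69 ± 0.10, edgeR adjusted p = 9.1e-06). Both are known from astrocytes as well as from growing cells, and in input their folds were 0.39 and -0.01. Of 24 tested glycolysis and hypoxia genes 12 were higher and 4 lower (median 0.35; 6 higher without control IP replicate 2 and 7 higher without control IP replicate 3, and 2 under the excitatory-neuron scaling without Nptxr). The glycolytic enzyme Tpi1 had 819.9, 726 and 664 CPM in AZD IP, against 507, 416 and 459 CPM in control IP (log2 fold 0.68 ± 0.12, edgeR adjusted p = 0.0023). The hypoxia-induced Vegfa and Ndrg1 were lower. Vegfa was at 14.3 ± 2.58 CPM in AZD IP and 33.3 ± 3.60 CPM in control IP (log2 fold -1.21 ± 0.23, edgeR adjusted p = 0.0026). Ndrg1 was at 17.4 ± 3.98 CPM in AZD IP and 61.6 ± 3.18 CPM in control IP (log2 fold -1.81 ± 0.22, edgeR adjusted p = 0.0002).

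Activity-linked genes did not move one way. Of 32 immediate-early genes 6 were higher and 3 lower than in control IP (3 higher and 3 lower under the excitatory-neuron scaling without Nptxr). Against tumor IP 22 were lower and none higher (median -0.91), where 33.5% of all genes were lower and 25.1% higher. Those higher than in control IP included Dusp6 and Trib1, feedback genes of growth factor signalling. Dusp6 had 169.7, 111 and 109 CPM in AZD IP, against 88.9, 56.0 and 54.7 CPM in control IP, and 251 ± 13.1 CPM in tumor IP (log2 fold 0.96 ± 0.21, edgeR adjusted p = 0.0057). Trib1 had 27.5, 29.9 and 31.7 CPM in AZD IP, against 17.0, 10.6 and 10.3 CPM in control IP (log2 fold 1.23 ± 0.25, edgeR adjusted p = 0.0041). Jund, an AP-1 subunit, was at 53.8 ± 10.7 CPM in AZD IP and 96.2 ± 3.78 CPM in control IP (log2 fold -0.83 ± 0.14, edgeR adjusted p = 0.0016). Of 24 tested activity effectors 6 were higher (25%) and 5 lower (20.8%), against 16% and 17.4% of all genes. The number higher was 3 without AZD IP replicate 1 or control IP replicate 2 or control IP replicate 3. The counts were 3 higher and 5 lower under the excitatory-neuron scaling without Nptxr. Plk2, a kinase of homeostatic synapse weakening, had 756, 575 and 517 CPM in AZD IP, against 379.5, 332 and 336 CPM in control IP (log2 fold 0.82 ± 0.14, edgeR adjusted p = 0.0013), above the controls in every AZD library. Crh, the corticotropin-releasing hormone that some interneurons make, was at 2.22 ± 0.552 CPM in AZD IP and 6.22 ± 0.277 CPM in control IP (log2 fold -1.46 ± 0.27, edgeR adjusted p = 0.0025).

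Actomyosin, spectrin and ankyrin genes had 9 of 32 lower and 2 higher (median -0.37; 0 higher and 22 lower under the excitatory-neuron scaling without Nptxr). Myo6, an actin motor, had 33.3, 27.4 and 43.0 CPM in AZD IP, against 135, 168 and 156 CPM in control IP (log2 fold -2.14 ± 0.18, edgeR adjusted p = 2.2e-05). Tln1, which links integrins to actin, had 17.7, 19.966 and 20.4 CPM in AZD IP, against 44.3, 46.7 and 44.1 CPM in control IP (log2 fold -1.21 ± 0.09, edgeR adjusted p = 1.3e-05). In input Tln1 was higher, at a log2 fold of 0.87. Sptan1, a spectrin chain of neurons, did not pass. It had 966, 1049 and 1216 CPM in AZD IP, against 1313, 1114 and 1247 CPM in control IP (log2 fold -0.19 ± 0.21, edgeR adjusted p = 0.54), and 2656 ± 869 CPM in tumor IP. Among 30 axon and dendrite cytoskeleton genes 7 were higher and 4 lower (2 higher without control IP replicate 2 or control IP replicate 3, 3 higher without AZD IP replicate 2 and 4 higher without AZD IP replicate 1 or control IP replicate 1; 2 higher and 10 lower under the excitatory-neuron scaling without Nptxr). Stmn3, a tubulin-binding stathmin, was at 561 ± 86.9 CPM in AZD IP and 342 ± 29.5 CPM in control IP (log2 fold 0.71 ± 0.13, edgeR adjusted p = 0.0023). Nefh, the heavy neurofilament, was at 23.8 ± 3.83 CPM in AZD IP and 38.6 ± 5.01 CPM in control IP (log2 fold -0.71 ± 0.14, edgeR adjusted p = 0.0038). Of 20 docking and adhesion genes 5 were higher and 6 lower (3 higher and 7 lower under the excitatory-neuron scaling without Nptxr), led by Tns3, a focal adhesion protein, at a log2 fold of -1.88 ± 0.18.

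The contrast of IP minus input asked where AZD against control differed between the fractions. It passed for 4953 of 16016 genes (30.9%), 1867 higher in IP (11.7%) and 3086 lower (19.3%). With the replicate number as a block, which the data bear out for input and IP within AZD and within control, it passed for 7599. The counts by direction and by list given here are from fits without the block. The directions rest on the scaling: 39 were higher and 8841 lower under the excitatory-neuron scaling, and 1044 higher and 3708 lower when scaled by library totals. Of the excitatory markers 17 of 30 were relatively higher in IP and none lower (median 0.90), of the release genes 26 of 54 (median 0.67) and of the ion channels 23 of 59 (median 0.62). Of 26 astrocyte genes 26 (median -2.18), of 26 glioma lineage genes 25 (-1.87) and of 34 interferon genes 19 (-1.56) were relatively lower in IP. The ratio of IP over input given above for each condition moves with this contrast, and the input libraries of control belong to yet another library set.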

How the data were processed

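RNA of 18 libraries in 6 groups of 3 was used as deposited by the authors: a table of whole-number read counts per gene symbol, not normalized. Per the labels' protocols, polysomal RNA was pulled down by the HA tag and libraries were made with a strand-specific kit. Per the submitters' processing notes, STAR, DESeq2 and the mm10 build were used, with no versions. How reads were counted, with which annotation and whether by strand is not given in the sources used here.

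The members and gene lists (40 lists, 1222 members, 1217 of them in the table) were chosen with earlier results of these data known.

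Counts were tested with edgeR 4.0.16 (R 4.3.3): filterByExpr, TMM scaling and the quasi-likelihood F test on the 9 IP libraries, the 9 input libraries, or all 18 for the contrast of IP minus input, with Benjamini-Hochberg adjustment over all tested genes at 0.05. Standard errors come from that fit. Named genes were the 15 with the largest change in each direction (8 in other contrasts) among those passing, with a mean of at least 10 CPM over the libraries compared and, for contrasts within a fraction, no overlap, plus up to 5 passing and 2 not passing genes of each list and a fixed set of markers; other names are said to be chosen after their values were seen.

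Alternatives were DESeq2 1.42.0, other scalings and filters, a fold of 1.5 tested and a gene set labelled neuron-enriched. That set held genes with more RNA in the pull-down of tumor mice than in their total RNA, fractions of different library sets. Further alternatives were the groups compared alone, the replicate number as a block and each library left out. Scaling without Nptxr was added after seeing the data. Whether equal numbers pair libraries was checked by correlating deviations from group means over 16016 genes. AZD IP with AZD input gave 0.417, 0.243 and 0.196 and control IP with control input 0.164, 0.197 and 0.146. The numbers were therefore taken as pairs between fractions in the IP over input ratios and in the fit with the block. The main fit of IP minus input used no pairs. Tumor IP with tumor input was not checked. AZD IP with control IP gave 0.147, -0.084 and 0.143, so they were not taken as pairs there. Counts were simulated for AZD against control in IP (15524 genes), with 200 genes changed. Of genes changed by 0.5 on the log2 scale 19.4% were found, 68.3% of those changed by 1 and 90.9% of those changed by 2, with 3 false calls. Promoter sequences and coordinates are from RefSeq (GRCm38.p6), in which 21571 of 23420 symbols matched (92.1%). Results for a few named genes are not reported here.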

Additional observations from a re-analysis of the deposited data

Results flagged for a closer look

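The difference between AZD and control itself differed between IP and input, by the interaction term of the fit, for 4953 genes (edgeR adjusted p at 0.05), or 7599 with the replicate number as a block. In the separate fits 344 genes were lower in IP and higher in input, and 86 were higher in IP and lower in input. Control input and control IP belong to different library sets while all AZD libraries belong to one, so set and fraction cannot be told apart in this term.

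Differences of log2 folds, IP minus input, were ranked among genes that passed with a mean of at least 10 CPM. The largest positive ones were those of Rell2 (2.97), Apex1 (2.68), Lypd1 (2.40), Clvs1 (2.22), Thyn1 (2.21), Nptxr (2.13), C1ql3 (2.13) and Stub1 (1.91). Apex1, a DNA repair endonuclease, had 12.7, 9.95 and 9.10 CPM in AZD IP, against 8.04, 6.28 and 6.94 CPM in control IP, with 9.43, 7.75 and 8.58 CPM in AZD input, against 40.7, 37.6 and 33.1 CPM in control input. Stub1, a ubiquitin ligase that works with chaperones, had 33.2, 31.3 and 33.7 CPM in AZD IP, against 34.1, 31.4 and 32.6 CPM in control IP, with 21.9, 22.3 and 22.5 CPM in AZD input, against 91.5, 78.0 and 78.2 CPM in control input. For Nptxr the positive value reflects a difference that was lower in both fractions, and further lower in input.

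In the same ranking the largest negative differences were those of Cdr1 (-12.57), BC049635 (-8.72), Hipk4 (-8.55), Klhl34 (-6.37), Nusap1 (-3.61), Cd9 (-3.40), Tnfaip6 (-3.21) and Prc1 (-3.21). The first 4 were almost without counts in control and tumor input. Summed over 3 libraries, Cdr1 had 4274 counts in AZD input, 1 in tumor input and 2 in control input, while control IP had 8966. Hipk4 had 1060 counts in AZD input, 9 in tumor input and 3 in control input, against 3351 in control IP. Klhl34 had 1564, 6 and 17 counts in AZD, tumor and control input, and BC049635 had 749, 1 and 1. These fitted values depend on the prior count and are no bounds. The control and tumor input libraries, which share a library set, were alike in this, and its cause was not tested. Nusap1 and Prc1, genes of the mitotic spindle, had positive log2 folds in both fractions, 1.06 in IP and 4.69 in input for Nusap1 and 1.93 in IP and 5.17 in input for Prc1.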

How the results depend on the processing

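AZD against control in IP kept its count within 1.5 times the 5246 genes under 15 of 19 settings. It was 1418 with a fold of 1.5 tested, 3122 with excitatory-neuron scaling and 58 among the 322 genes of a set labelled neuron-enriched. When 1 library was left out it was 3429 to 4735, lowest without control IP replicate 2. In input the count was 1510 and 10156 under the first 2 of those settings. Of the 307 genes of that set tested in input 203 passed, 184 higher and 19 lower (median log2 fold 1.26), where 36.8% of all genes passed. The excitatory markers went the other way in input, with 0 of 30 higher and 17 lower (median -0.57). The set is therefore not read as neuronal genes. Over left-out libraries the input count was 3737 to 4965, with 3737 without control input replicate 2 and 3760 without AZD input replicate 1. For IP minus input it was 1837 and 8880 under the first 2 settings and 210 of the 322 genes of that set (30.9% of all genes). It was 7990 under excitatory-neuron scaling without Nptxr, 7599 with the replicate block and 3797 to 5070 over left-out libraries. Against tumor IP it was 3999 with a fold of 1.5 tested and 148 of the 322 genes of that set (58.7% of all genes). Over left-out libraries it was 7936 to 9090. Scaling to excitatory markers without Nptxr shifted the median of all genes to -0.20 in IP, 0.62 in input, -0.86 for IP minus input and -1.07 against tumor IP. The share of called genes that were higher went with it: 13.5% in IP (48.0% before), 97.3% in input (56.4% before), 0.513% for IP minus input (37.7% before) and 1.14% against tumor IP (42.8% before). With Nptxr kept the shares were 30.5%, 98.8%, 0.439% and 2.42%. Scaling by library totals gave 66.2% in input and 22.0% for IP minus input. Under excitatory-neuron scaling without Nptxr the medians of 6 lists turned negative: mTOR pathway (-0.15), ATF4 targets (-0.17), glioma lineage (-0.10), transmitter release (-0.15), immediate-early (-0.0040) and neuronal injury (-0.02). Relative to all genes the first 2 were 0.05 and 0.03. The medians of the GABA and cytoskeleton lists, close to 0, also took both signs over the scalings. With the replicate number as a block, though the numbers do not pair AZD with control, 5300 genes passed in IP, 6068 in input and 9275 against tumor IP; the block moved no other count by over 1.5 times. Of 229 named genes that passed, 87 lost the call under at least 1 alternative, 47 of them under one other than the fold of 1.5, and none changed direction. In the simulated counts only 200 genes were changed, and 19.4% of changes of 0.5 on the log2 scale were found. In the data 5246 genes passed, so the adjusted cutoff was less strict. The simulated share therefore does not give the share of such changes found in the data.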

Other observations

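Immune-response genes that were higher in input were mostly not so in IP. Of 34 interferon-response genes 21 were higher in AZD input than in control input (median log2 fold 1.21), where 20.7% of all genes were higher. In IP 1 was higher and 4 lower (median -0.12). Against tumor IP 30 were lower, where 33.5% of all genes were lower. Parp14, an interferon-induced ADP-ribosyltransferase, had 1.70, 2.45 and 2.14 CPM in AZD IP, against 4.10, 5.15 and 4.22 CPM in control IP (log2 fold -1.07 ± 0.25, edgeR adjusted p = 0.0077), and its log2 fold in input was 0.64. Of 18 antigen-presentation genes 16 were higher in input (median 1.62), and in IP 2 were higher and 3 lower (median -0.26). H2-K1, a class I heavy chain, had 10.3, 4.20 and 5.19 CPM in AZD IP, against 15.3, 12.988 and 17.8 CPM in control IP (log2 fold -1.29 ± 0.28, edgeR adjusted p = 0.0057), with a log2 fold of 1.45 in input. The single higher interferon gene, Irgm1, passed in no fit that left out a library, the lower interferon genes numbered 1 without AZD IP replicate 2 or control IP replicate 3 and 2 without AZD IP replicate 3, and the lower antigen genes 1 without control IP replicate 3; no antigen gene was higher without control IP replicate 2 or 3, and 1 was without AZD IP replicate 1 or 2.

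Of 42 lysosome genes 12 were higher (28.6%) and 9 lower (21.4%) in IP, against 16% and 17.4% of all genes. The number higher was 5 without control IP replicate 2 or control IP replicate 3. Under the excitatory-neuron scaling without Nptxr 0 were higher and 10 lower. Ctsh, a lysosomal protease, had a log2 fold of -2.01 ± 0.25. Of 31 chaperone genes 5 were higher (16.1%) and 2 lower (6.45%), the former share being that of all genes (16%). The number higher was 2 without control IP replicate 2 and 3 without AZD IP replicate 2. Under the excitatory-neuron scaling without Nptxr 2 were higher and 7 lower. Herpud1, of endoplasmic reticulum protein disposal, had 69.4, 73.7 and 65.7 CPM in AZD IP, against 43.5, 40.1 and 41.8 CPM in control IP (log2 fold 0.73 ± 0.10, edgeR adjusted p = 0.00033), and Bag3, a cochaperone of autophagy, had 1.08, 1.26 and 1.74 CPM in AZD IP, against 4.10, 4.81 and 4.46 CPM in control IP (log2 fold -1.66 ± 0.21, edgeR adjusted p = 0.00026). Of 21 neuronal injury genes 3 were higher and 2 lower (0 higher and 2 lower under the excitatory-neuron scaling without Nptxr). Of 14 T cell genes 5 were tested and 1, Cd4, was lower. Of 8 tested ependymal and choroid plexus genes 4 were lower and none higher (median -1.28). Neither of the 2 erythrocyte genes tested passed in edgeR. The cholinergic genes Slc5a7 and Chat, of which Chat was chosen after its values were seen, had log2 folds of -3.31 and -3.11 in IP; Slc5a7, the choline transporter, had 1.62, 1.37 and 3.19 CPM in AZD IP, against 17.8, 25.7 and 19.9 CPM in control IP.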
